A study of Mus musculus with 6 samples.

Results

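Fibroblast growth factor (FGF) signaling was followed through 35 genes among the 24453 gene rows of a count table of newborn mouse skin cells. The genes were every row whose symbol is Fgf and a number (22 rows) and 13 genes added by name, namely the receptors Fgfr1 to Fgfr4 and Fgfrl1, the feedback inhibitors Spry1 to Spry4 and Dusp6, and the ETS transcription factors Etv1, Etv4 and Etv5. Libraries called 2KO here carry the genotype label Ring1a-/- Ring1b-/-, a loss of both ubiquitin ligase subunits of Polycomb repressive complex 1, and the other libraries are labelled control. There are 3 libraries of each, all from mice of postnatal day 0. The sources used here do not give the strain, the alleles of the controls, any Cre driver, or whether each library came from its own animal, so p-values measure the spread between these libraries, which may be technical.

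Back skin was dissociated and cells were sorted by flow cytometry with antibodies to EpCAM, Sca1 and α6-integrin. The labels call the cells hair follicle cells, while their protocol text describes a gate for interfollicular epidermis. Basal keratinocyte markers summed to between 19230 and 27250 CPM (counts per mega-count of the TMM-scaled library) in 2KO libraries and between 14010 and 25740 CPM in control libraries. Hair follicle markers, Sox9, Lhx2 and Shh among them, summed to between 1644 and 2349 CPM in 2KO and between 1784 and 2727 CPM in control. Suprabasal markers summed to between 809.7 and 2997 CPM in 2KO and between 2861 and 10780 CPM in control, and none of the 4 passed. Markers of melanocytes, endothelium, immune cells, muscle and Schwann cells summed to at most 71.3 CPM in any 2KO library. In any control library they summed to at most 40.4 CPM, and none was called (edgeR). The Langerhans cell marker Cd207 had 0 counts in all 6 libraries, which alone does not show that these cells were absent. Libraries held between 24.76 and 30.799 M counts (M, mega). Neither targeted gene lay apart between the groups. Ring1, which encodes RING1A, was at 1.84, 7.34 and 14.1 CPM in 2KO and at 19.5, 22.4 and 3.37 CPM in control, with an edgeR adjusted p of 0.537. Rnf2, which encodes RING1B, was at 75.3, 66.4 and 89.2 CPM in 2KO and at 67.7, 79.5 and 47.1 CPM in control (edgeR adjusted p = 0.615). Reads from outside a deleted exon still count toward a gene, so these levels are a weak check. Ring1 went against the label of control replicate 3, so groups are meant as labelled throughout.

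FGF ligands are secreted proteins that bind heparan sulfate and tyrosine kinase receptors on the cell surface. An activated receptor signals through RAS and the kinase ERK, which switches on Etv4, Etv5 and the inhibitors Spry and Dusp6 that dampen the signal. In skin, ligands from the mesenchyme, such as FGF7 and FGF10, act on epithelial FGFR2, FGF20 is made by the hair placode, and FGF5 ends hair growth. A separate branch, the FGF homologous factors FGF11 to FGF14, is not secreted and binds voltage-gated sodium channels inside the cell.

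Of the feedback inhibitors, Dusp6, Spry1, Spry2 and Spry4 were highest in replicate 1 of each group, and Spry4 had no promoter window. Promoter windows are shown for Dusp6, Spry1 and Spry2, and for the only member that rose (Fgf11). Each is the 250 bases before the RefSeq start (GRCm38.p6), read 5′ to 3′ on the gene's strand, and capitals mark CG dinucleotides, which are dense in the promoters that Polycomb complexes bind.
Fgf11: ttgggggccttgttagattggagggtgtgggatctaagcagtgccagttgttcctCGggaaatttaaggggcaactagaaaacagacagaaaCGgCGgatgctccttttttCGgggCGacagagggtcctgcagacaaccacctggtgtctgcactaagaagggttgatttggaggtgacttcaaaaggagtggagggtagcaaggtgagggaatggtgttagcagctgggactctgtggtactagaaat
Dusp6: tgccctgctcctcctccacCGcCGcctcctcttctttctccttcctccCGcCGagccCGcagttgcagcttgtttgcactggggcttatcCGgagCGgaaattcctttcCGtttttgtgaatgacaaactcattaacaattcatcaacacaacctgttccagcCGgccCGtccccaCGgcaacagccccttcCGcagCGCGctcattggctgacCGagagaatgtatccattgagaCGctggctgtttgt
Spry1: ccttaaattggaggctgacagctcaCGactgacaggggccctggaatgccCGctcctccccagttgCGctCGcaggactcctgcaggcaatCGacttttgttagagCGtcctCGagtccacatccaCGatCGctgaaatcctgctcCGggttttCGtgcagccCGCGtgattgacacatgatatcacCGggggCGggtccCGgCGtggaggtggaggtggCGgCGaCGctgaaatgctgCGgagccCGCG
Spry2: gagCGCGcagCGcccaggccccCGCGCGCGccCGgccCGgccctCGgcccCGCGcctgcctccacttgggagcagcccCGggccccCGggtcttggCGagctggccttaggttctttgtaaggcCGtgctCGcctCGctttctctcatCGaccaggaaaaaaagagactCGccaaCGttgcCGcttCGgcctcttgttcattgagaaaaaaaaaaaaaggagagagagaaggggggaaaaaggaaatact
The Fgf11 window is chr11:69802281-69802530 (minus strand), that of Dusp6 chr10:99262981-99263230 (plus), that of Spry1 chr3:37639697-37639946 (plus) and that of Spry2 chr14:105896820-105897069 (minus). The Fgf11 window does not adjoin the gene's start in GENCODE vM21 (69801857, minus strand), while the other windows shown adjoin theirs. Bases next to that Fgf11 start were therefore not counted. The Fgf11 window held 5 CG dinucleotides, a number that 55.6% of 32851 RefSeq windows reach. The Spry1 and Spry2 windows held 23 each, reached by 13.3% of windows, and that of Dusp6 held 16, reached by 25.4%. Over the 34 windows of the 25 members that matched, the median was 17, beside 6 over all windows. The ETS motif CCGGAA, searched on both strands, was in a window of Fgf5, Fgf12, Fgfr4 and Fgfrl1 and in none of the 4 windows printed here, while 12% of all windows hold it.

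Of the 35 genes, 22 had enough counts to be tested. Fgf11 alone rose in 2KO and Fgf2 alone fell (edgeR quasi-likelihood test, adjusted p under 0.05 over 14972 genes), and 20 did not pass. Of all tested genes 6.61% were called higher and 2.42% lower (9.02% either way), so 1 call each way among 22 genes was near the background. The median log2 fold change of 2KO over control was 0.24 for the tested members and -0.02 for all tested genes. The groups did not overlap for 4 members that were higher in 2KO (Fgf11, Fgf13, Fgf18 and Fgfrl1) and 5 that were lower (Fgf2, Fgf5, Fgf20, Fgf22 and Fgfr3). The same held for 15.2% of all tested genes in the higher direction and 13.1% in the lower (28.4% either way). An unadjusted p under 0.05 was reached by 5 of the 22 members (22.7%) and by 21.6% of all tested genes.

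**Figure D1:**
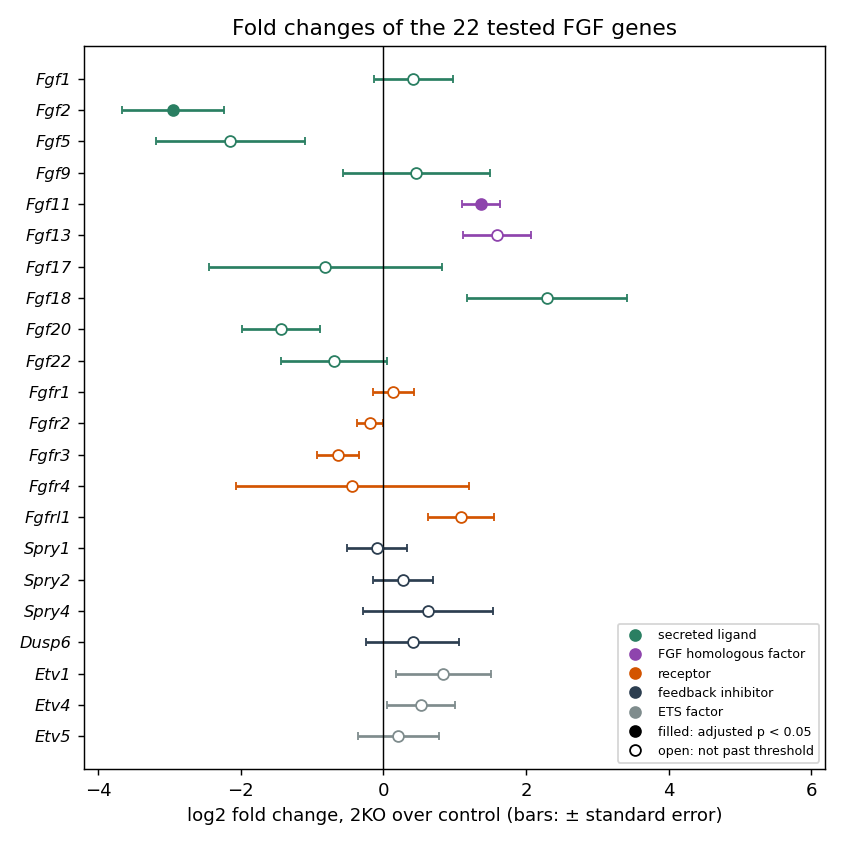
Log2 fold change of 2KO over control (x axis) for the 22 tested members (rows, coloured by role), with bars of 1 standard error from edgeR. Filled points passed the threshold: Fgf11 at 1.36 lies right of 0 and Fgf2 at -2.95 lies left of it, while the feedback inhibitors and ETS factors sit between -0.09 and 0.84.

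Among the secreted ligands Fgf2 changed. Fgf2 (chromosome 3, 37348346 to 37410108, plus strand in GENCODE vM21), a growth factor of many tissues that lacks a signal peptide, was at 1.10, 0.234 and 0.432 CPM in 2KO and at 5.68, 5.39 and 2.55 CPM in control. Every 2KO library was below every control library. The mean was 0.588 ± 0.453 CPM in 2KO and 4.54 ± 1.73 CPM in control (SD, n = 3 each), a log2 fold change of -2.95 (SE 0.72, edgeR adjusted p = 0.0318). In counts, this was 46 reads over the 2KO libraries and 405 over the control libraries. Exons of Fgf2 share 640 nt with Nudt6 on the opposite strand and 255 nt with Gm43439 on the same strand, and strand use in counting is not stated, so reads of these genes cannot be told apart there. Nudt6 itself was at 4.39, 3.60 and 3.92 CPM in 2KO and at 10.1, 8.01 and 6.77 CPM in control (edgeR adjusted p = 0.101). The call of Fgf2 was lost without 2KO replicate 2 (adjusted p = 0.0883) or 3 (0.0967), without control replicate 1 (0.1001) or 2 (0.0928), and without both replicate-3 libraries (0.135). It was also lost with Xist as a covariate (0.118), and the log2 fold change stayed between -3.76 and -2.55 with each library left out in turn.

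Fgf20 and Fgf5 were low and lay below control in every 2KO library without passing the test. Fgf20, a ligand of the hair placode, was at 1.22, 0.935 and 1.02 CPM in 2KO and at 3.02, 2.55 and 3.04 CPM in control, a log2 fold change of -1.44 (SE 0.55, edgeR adjusted p = 0.159). The groups did not overlap, and Fgf20 gave 85 reads over the 2KO libraries and 257 over the control libraries. Its exons share 202 nt with Micu3 on the opposite strand, which was at 24.6 ± 3.29 CPM in 2KO and 26.1 ± 6.22 CPM in control (SD, n = 3 each). Fgf5, the ligand that ends hair growth, was at 0.118, 0.768 and 0.0392 CPM in 2KO and at 0.887, 1.68 and 1.64 CPM in control (edgeR adjusted p = 0.278). Of its 27 reads over the 2KO libraries, 23 came from replicate 2. In the same libraries the hair follicle markers Shh and Msx2 fell (edgeR adjusted p = 0.012 and 0.0365). These were 2 of 8 markers of that list, beside 2.42% of all tested genes called lower, and none was called higher. Without passing, Lhx2 and Lef1 lay lower in every 2KO library than in any control library, as did 13.1% of all tested genes. Krt17 lay higher in the same way (log2 fold change 0.89, edgeR adjusted p = 0.0514), beside 15.2% of all tested genes. The part of hair follicle cells in the Fgf20 and Fgf5 levels was not tested. In bulk samples, fewer cells of a type and less RNA per cell cannot be told apart.

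Of the other tested ligands, Fgf18, which acts in hair cycle rest and in bone, was at 1.57, 2.30 and 0.981 CPM in 2KO and at 0.426, 0 and 0.556 CPM in control (log2 fold change 2.29, 95% interval -0.23 to 4.82, edgeR adjusted p = 0.280). All 2KO libraries lay above all control libraries, at few reads. Fgf22, a ligand of hair and synapse, was between 0.510 and 0.601 CPM in 2KO and between 0.687 and 1.29 CPM in control, and its exons overlap Rnf126 on the other strand (edgeR adjusted p = 0.676). Fgf1, a ligand of all FGF receptors, was at 3.49, 8.58 and 3.14 CPM in 2KO and at 3.55, 2.16 and 5.66 CPM in control, with overlapping groups (edgeR adjusted p = 0.742). Fgf9, the close relative of Fgf20, was at 0.549, 0.935 and 0.706 CPM in 2KO and at 0.674, 0.0323 and 0.883 CPM in control (edgeR adjusted p = 0.859). Fgf17, a ligand of the midbrain, was at 0.784, 0 and 0.0392 CPM in 2KO and at 0.993, 0 and 0.458 CPM in control (edgeR adjusted p = 0.840). Both genes overlapped between the groups.

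**Figure D2:**
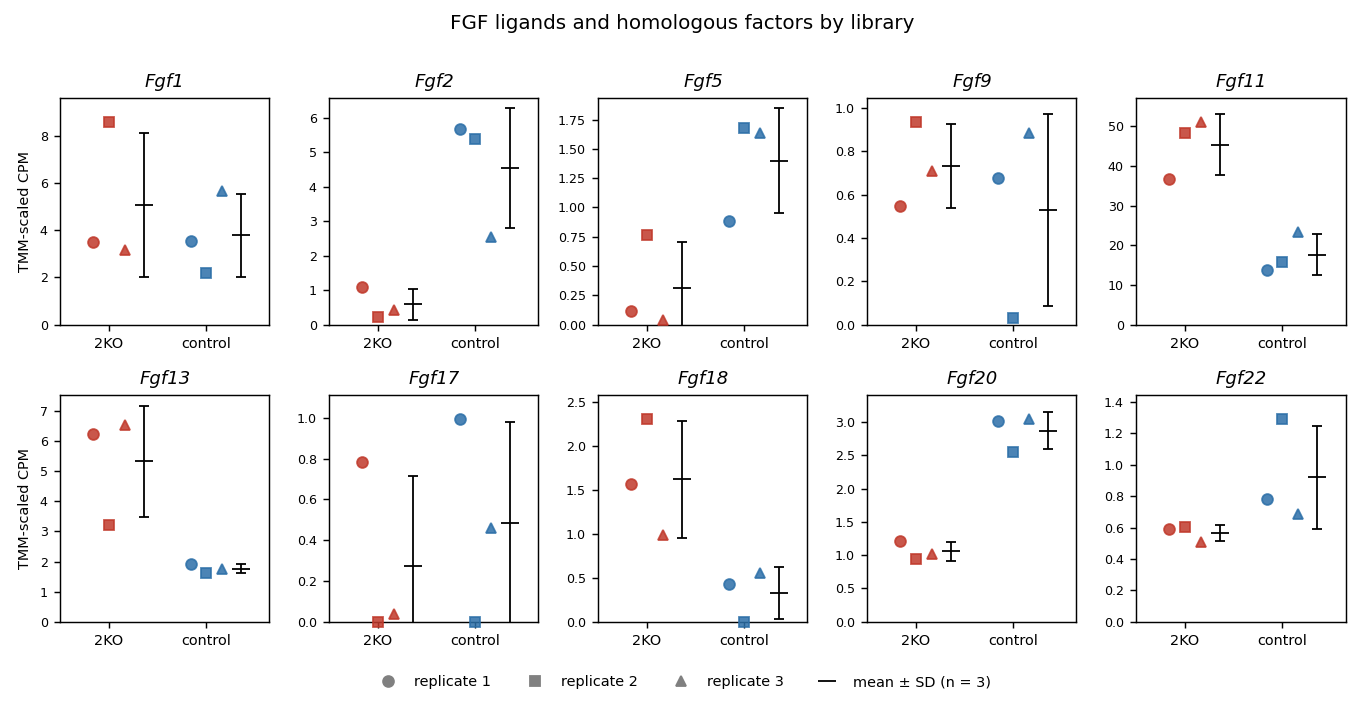
TMM-scaled CPM (y axis, from 0, a scale of its own per gene) of the 10 tested ligands and homologous factors in each 2KO and control library, with marker shapes for replicates and bars for the mean ± SD (n = 3), cut off at 0. Every 2KO library lies above every control library for Fgf11, Fgf13 and Fgf18, and below every control library for Fgf2, Fgf5, Fgf20 and Fgf22.

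The homologous factors held the member that rose. Fgf11 lies on the minus strand of chromosome 11 (69796068 to 69801857). Its level was 36.6, 48.3 and 51.1 CPM in 2KO and 13.8, 15.7 and 23.5 CPM in control. The lowest 2KO library stood above the highest control library. The mean was 45.4 ± 7.68 CPM in 2KO and 17.6 ± 5.14 CPM in control (SD, n = 3 each), a log2 fold change of 1.36 (SE 0.27, edgeR adjusted p = 0.0128). The adjusted p was 0.0507 without control replicate 2 and 0.0542 without both replicate-3 libraries, with log2 fold changes of 1.28 and 1.53. Per kb of exon, Fgf11 was the most abundant of the 22 Fgf genes in both groups, at 14.9 CPM per kb in 2KO and 5.80 CPM per kb in control.

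Fgf13, an X-linked gene whose human counterpart is tied to excess hair growth, was at 6.24, 3.20 and 6.55 CPM in 2KO and at 1.92, 1.61 and 1.77 CPM in control. The groups did not overlap, and the log2 fold change was 1.59 (SE 0.48, 95% interval 0.52 to 2.67). With edgeR the gene missed the threshold (adjusted p = 0.0733), and with DESeq2 it passed (adjusted p = 0.0124). DESeq2 called 9.45% of all tested genes higher and 4.9% lower. Xist, the RNA of the inactive X chromosome in females, was at 5361, 4952 and 10.4 CPM in 2KO and at 2.48, 9.27 and 4555 CPM in control, and the labels give no sex. Fgf13 was at 6.55 CPM in the 2KO library low in Xist (replicate 3). It was at 6.24 CPM in 2KO replicate 1 and at 3.20 CPM in 2KO replicate 2, both high in Xist. Control replicate 3, high in Xist, lay between the other control libraries. With Xist as a covariate the Fgf13 log2 fold change was 1.67 (edgeR adjusted p = 0.108). The part of sex in the Fgf13 levels was not tested. Fgf12 had 17, 9 and 0 reads in 2KO and none in control, and Fgf14 had 6 reads over the 2KO libraries and 2 over the control libraries. Both were too low to be tested.

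The other 11 members that were not tested reached at most 1.49 CPM in any library. Fgf6, a muscle ligand, and Spry3 had 0 counts in all 6 libraries, which allows a level of up to between 0.0969 and 0.118 CPM per library (3 counts, counting error only). In GENCODE vM21 Spry3 lies on a scaffold outside the chromosomes. Whether reads were aligned to that scaffold is not stated, so for Spry3 this limit holds only if they were. The mesenchymal ligands Fgf7 and Fgf10 were low in both groups. Fgf7 was at 0.275, 0.334 and 0.157 CPM in 2KO and at 0.993, 0 and 0 CPM in control, and Fgf10 at 0.980, 0.167 and 0.275 CPM in 2KO and at 0.0710, 0.517 and 0.0981 CPM in control. The 6 dermal papilla markers other than these ligands summed to between 11.5 and 41.5 CPM in 2KO and between 5.62 and 7.94 CPM in control. The high end was 2KO replicate 1, where Wif1 alone was at 24.55 CPM. Rspo3, Crabp1 and Wif1 lay higher in every 2KO library than in any control library, as did 15.2% of all tested genes. Corin lay lower, at 8 reads over the 2KO libraries and 33 over the control libraries. Sox2 and Alpl overlapped between the groups. Of these markers 4 were tested, and none was called (edgeR).

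Ligands of the early embryo had few reads. Fgf3 had 2 reads over the 2KO libraries, Fgf4 had 3 and Fgf8 had 4, and none of the 3 genes had a read in control. Fgf16, an X-linked ligand of the heart, had 31, 2 and 38 reads in 2KO and 4, 1 and 0 in control, so 2KO replicate 2 lay within the control range. With no low-count filter its edgeR adjusted p was 0.182, and that of Fgf12 was 0.187. Of the endocrine ligands, Fgf15, a gut hormone, had 25 reads in control replicate 1 and none elsewhere. Fgf21, a liver hormone, had 9 reads over the 2KO libraries and none in control. Fgf23, a bone hormone, had 1, 21 and 0 reads in 2KO and 0, 7 and 0 in control.

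Among the receptors, Fgfr2 was the most abundant per kb of exon, at 83.2 CPM per kb in 2KO and 94.6 CPM per kb in control. Fgfr1 followed at 20.1 CPM per kb in 2KO and 18.2 in control, and Fgfr3 at 11.5 CPM per kb in 2KO and 17.9 in control. Fgfrl1 was at 2.28 CPM per kb in 2KO and 1.07 in control, and Fgfr4 at 0.283 CPM per kb in 2KO and 0.384 in control. In control libraries Fgfr1 and Fgfr3 differed by less than the spread of Fgfr1, and the levels of Fgfrl1 and Fgfr4 overlapped. None of the 5 receptors passed the threshold with edgeR, DESeq2 or limma-voom, and 1 (Fgfrl1) had an unadjusted p under 0.05. Counts are per gene, so the epithelial and mesenchymal splice forms of Fgfr1, Fgfr2 and Fgfr3 cannot be told apart. In the annotation, exons of Fgfr2 share 314 nt with Ctbp2 on the same strand, and those of Fgfr3 share 998 nt with G630022F23Rik on the opposite strand.

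Fgfr2, the receptor of FGF7 and FGF10 in epithelium, was at 780.5, 837 and 959 CPM in 2KO and at 1145, 869.5 and 917 CPM in control. The groups overlapped, and the log2 fold change was -0.19 with a 95% interval of -0.59 to 0.21 (edgeR adjusted p = 0.628). Fgfr1, a receptor of epithelium and mesenchyme, was at 276, 155 and 163 CPM in 2KO and at 247, 141 and 151 CPM in control, and replicate 1 was highest in both groups (95% interval -0.50 to 0.78, adjusted p = 0.841). Fgfr3, which restrains growth of cartilage and is altered in benign human skin tumours, was at 44.4, 89.9 and 112 CPM in 2KO and at 135, 130 and 120 CPM in control. Every 2KO library lay below every control library, at a log2 fold change of -0.64 (SE 0.30, edgeR adjusted p = 0.246). The 2KO spread was 34.5 CPM (SD) and the control spread 7.60 CPM.

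Fgfrl1, a receptor without a kinase domain, was at 9.45, 5.84 and 3.73 CPM in 2KO and at 3.51, 3.16 and 2.26 CPM in control (log2 fold change 1.09, SE 0.47, edgeR adjusted p = 0.213). Here every 2KO library lay above every control library, the nearest pair by a small margin. Fgfr4, the receptor of liver and muscle, was at 0.157, 0.0668 and 2.79 CPM in 2KO and at 3.69, 0.387 and 0 CPM in control, with overlapping groups and a 95% interval of -4.11 to 3.23 (adjusted p = 0.925).

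**Figure D3:**
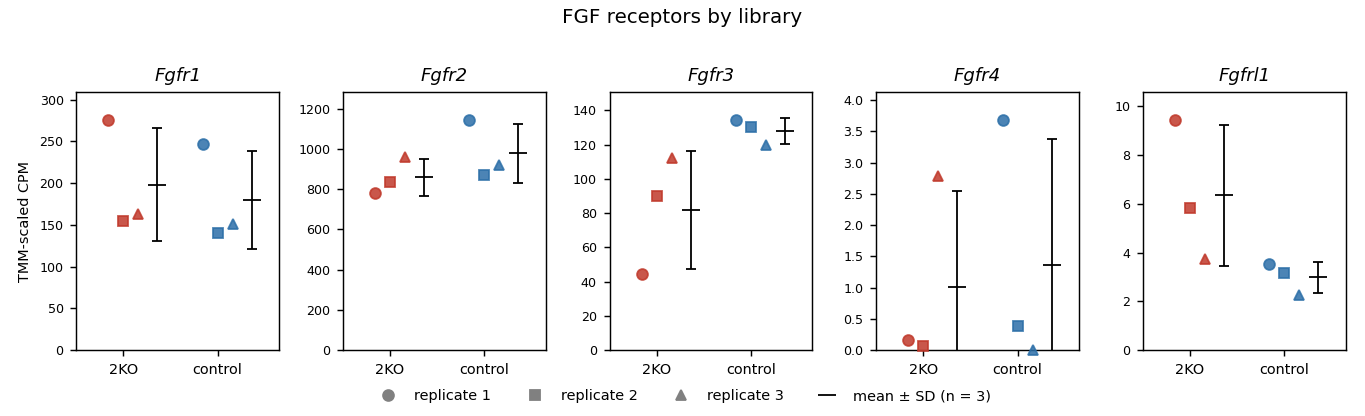
TMM-scaled CPM (y axis, from 0, a scale of its own per gene) of the 5 receptors in each 2KO and control library, with marker shapes for replicates and bars for the mean ± SD (n = 3), cut off at 0. Fgfr2 overlaps between the groups, while every 2KO library lies below every control library for Fgfr3 and above every control library for Fgfrl1.

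None of the feedback genes passed the test, and several varied widely between libraries of a group. Dusp6, the phosphatase that inactivates ERK, was at 418, 55.3 and 77.1 CPM in 2KO and at 192, 129 and 93.8 CPM in control. The 2KO libraries lay on both sides of all control libraries. The log2 fold change was 0.41 (SE 0.65, 95% interval -1.05 to 1.87, edgeR adjusted p = 0.792) with all libraries, and -1.05 without 2KO replicate 1 (adjusted p = 0.0821). Spry4, a Sprouty inhibitor of RAS signaling, was at 58.0, 4.31 and 4.71 CPM in 2KO and at 25.8, 8.98 and 8.67 CPM in control. In both groups replicate 1 stood far above the other libraries, and the log2 fold change was 0.63 (SE 0.91, edgeR adjusted p = 0.769), and -1.68 without 2KO replicate 1 (adjusted p = 0.104).

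In the other Sprouty genes, too, replicate 1 was the highest of each group, with a smaller range. Spry1 was at 57.2, 19.5 and 29.6 CPM in 2KO and at 53.4, 37.6 and 22.3 CPM in control (edgeR adjusted p = 0.938). Spry2 was at 71.7, 27.4 and 38.5 CPM in 2KO and at 59.8, 23.8 and 30.3 CPM in control (edgeR adjusted p = 0.783). For both genes the groups overlapped. Exons of Spry1 share 710 nt with Gm42922 on the opposite strand.

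The ETS factors that carry the response to the nucleus did not pass either. Etv5 was at 66.1, 28.6 and 9.73 CPM in 2KO and at 40.4, 18.6 and 31.2 CPM in control (edgeR adjusted p = 0.887). Etv4 was at 32.7, 21.1 and 7.02 CPM in 2KO and at 17.2, 11.1 and 13.9 CPM in control (edgeR adjusted p = 0.5998). In each, the highest and the lowest of the 6 libraries were both 2KO. Etv1, a factor of neurons and muscle, was at 2.12, 1.77 and 2.79 CPM in 2KO and at 2.16, 0.872 and 0.687 CPM in control (edgeR adjusted p = 0.541).

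No feedback inhibitor (4 tested) and no ETS factor (3 tested) passed with edgeR, DESeq2 or limma-voom, and none had an unadjusted p under 0.05. DESeq2 gave no adjusted p for Spry4, so that gene could not pass there. Within the 2KO group the ratio of the highest to the lowest library was 13.5 for Spry4, 7.56 for Dusp6, 6.80 for Etv5, 4.66 for Etv4, 2.94 for Spry1, 2.62 for Spry2 and 1.58 for Etv1, beside a median of 1.63 over tested genes with counts in all 2KO libraries. A larger ratio was found for 2.25% of those genes in the case of Spry4 and for 4.77% in the case of Dusp6. Within the control group the same ratio was 2.98 for Spry4, 2.04 for Dusp6, 2.18 for Etv5, 1.55 for Etv4, 2.40 for Spry1, 2.52 for Spry2 and 3.15 for Etv1, beside a median of 1.52.

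The highest of the 6 libraries was 2KO replicate 1 for 6 of these 7 genes (all but Etv1), and for 18.9% of all tested genes. Replicate 1 was the highest of its group in both groups for the same 6 genes, and for 17.7% of all tested genes. Of 14 tested genes of a list of other feedback inhibitors and ERK responsive genes, 9 had replicate 1 highest in both groups (Il17rd, Spred1, Dusp4, Egr1, Ier3, Phlda1, Ccnd1, Fosl1 and Lif) and 5 did not (Spred2, Spred3, Dusp5, Dusp7 and Myc). Phlda1 was at 320, 82.6 and 35.7 CPM in 2KO and at 308, 92.8 and 152 CPM in control, and Fosl1 at 32.1, 6.44 and 1.88 CPM in 2KO and at 26.5, 5.84 and 15.3 CPM in control. Egr1, an immediate early gene and the most abundant of that list, was at 3155, 1772 and 1320 CPM in 2KO and at 5431, 2688 and 2221 CPM in control (edgeR adjusted p = 0.331). None of the 14 genes passed with edgeR, DESeq2 or limma-voom without a replicate block, and 1 had an unadjusted p under 0.05.

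**Figure D4:**
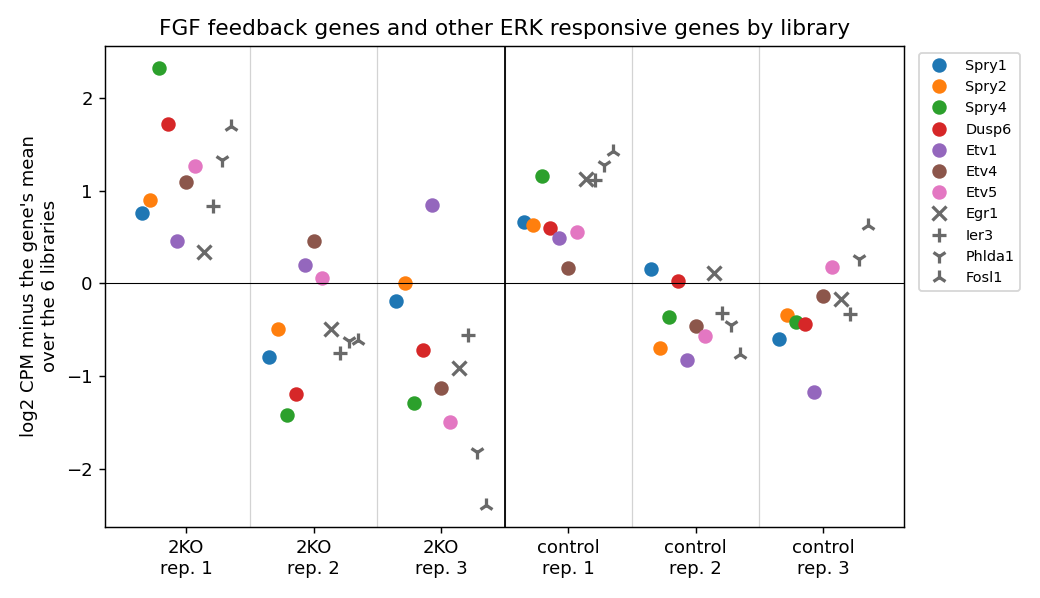
Log2 CPM minus the gene's mean over the 6 libraries (y axis) for 7 feedback inhibitors and ETS factors (coloured circles) and 4 other ERK responsive genes (grey symbols) in each 2KO and control library. Circles lie above 0 in 2KO replicate 1 and in control replicate 1, and Spry4 and Dusp6 lie below 0 in 2KO replicates 2 and 3.

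Steps around the receptor were read from 4 further lists of pathway genes. These lists were chosen with earlier results of these data known, so counts of calls on them only describe the listed genes. Of 20 tested genes of heparan sulfate chains and their carriers, 6 rose in 2KO (Ext2, Hs6st2, Sulf1, Sulf2, Sdc3 and Gpc6) and none fell, beside 6.61% of all tested genes called higher. DESeq2 called 8 of the 20 higher (9.45% of all genes) and limma-voom called 5 (6.89% of all genes), and neither called any lower. The 5 were Ext2, Gpc6, Sdc3, Sulf2 and Sdc1, a syndecan with an edgeR adjusted p of 0.0507, so limma-voom did not call Sulf1 or Hs6st2. The median log2 fold change over the 20 genes was 0.22, beside -0.02 for all tested genes.

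Sulf1 and Sulf2 encode extracellular sulfatases that trim sulfate groups from heparan sulfate and so alter its binding of FGF. Sulf2 was at 255, 262 and 261.5 CPM in 2KO and at 111, 152 and 108 CPM in control (log2 fold change 1.07, SE 0.18, edgeR adjusted p = 0.00662). Sulf1 was at 16.2, 2.44 and 10.2 CPM in 2KO and at 0.390, 1.00 and 0.523 CPM in control (log2 fold change 3.90, SE 0.73, edgeR adjusted p = 0.0109, limma-voom 0.0887). In both, every 2KO library lay above every control library. Hs6st2, a sulfotransferase that adds such groups, was at 6.59, 3.04 and 1.77 CPM in 2KO and at 0.177, 0.581 and 0.262 CPM in control (adjusted p = 0.0236, limma-voom 0.0592). Ext2, a polymerase of the chain, was at 204, 287 and 382 CPM in 2KO and at 132, 102 and 142 CPM in control (adjusted p = 0.0139).

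Of the core proteins that carry the chains, Sdc3, a syndecan of the cell membrane, was at 87.2, 67.3 and 48.5 CPM in 2KO and at 9.51, 23.02 and 7.55 CPM in control (log2 fold change 2.34, SE 0.42, edgeR adjusted p = 0.00937). Gpc6, a glypican, was at 111, 42.7 and 58.6 CPM in 2KO and at 27.0, 11.7 and 4.71 CPM in control (adjusted p = 0.0385). The groups did not overlap for either gene. Hspg2 (perlecan), the most abundant gene of the list by CPM that did not pass, was at 1251 ± 49.8 CPM in 2KO and 1175 ± 108 CPM in control (SD, n = 3 each, edgeR adjusted p = 0.817).

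Some of these calls were lost with 1 library fewer, while the folds stayed on the same side of 0. That of Hs6st2 was lost without 2KO replicate 1 (adjusted p = 0.0944) or 2 (0.0516) and without control replicate 1 (0.0702) or 3 (0.0862), at log2 fold changes between 2.81 and 4.08 over the 6 fits. That of Gpc6 was lost without 2KO replicate 1 (0.09996) or 3 (0.0753) and without control replicate 2 (0.106) or 3 (0.0617), at log2 fold changes between 1.81 and 3.13 over the 6 fits. The call of Ext2 was lost without control replicate 2 (0.0523, log2 fold change 1.09). None of the 6 passed without both replicate-3 libraries, and 3 did (Ext2, Gpc6 and Sulf2) without both replicate-1 libraries. With Xist as a covariate the calls of Hs6st2 (adjusted p = 0.106, log2 fold change 3.07, against 3.46 without the covariate) and Gpc6 (adjusted p = 0.0561, log2 fold change 2.99, against 2.29 without it) were lost. Dermal fibroblasts, cells that a sort for EpCAM and high α6-integrin would leave out, are known to express Sulf1 and Gpc6. Of 10 markers of these cells, 3 rose (Pdgfra, Fbn1 and Thy1), beside 6.61% of all tested genes called higher. None of the 10 fell or was at 0 counts. The markers summed to between 774 and 995 CPM in 2KO and between 450 and 811 CPM in control. Most abundant among them was Dcn, at 474 ± 66.9 CPM in 2KO and 381.5 ± 97.5 CPM in control (SD, n = 3 each, edgeR adjusted p = 0.469). Col1a1 and Col1a2 did not pass (adjusted p = 0.294 and 0.874). The part of these cells in the result was not tested.

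**Figure D5:**
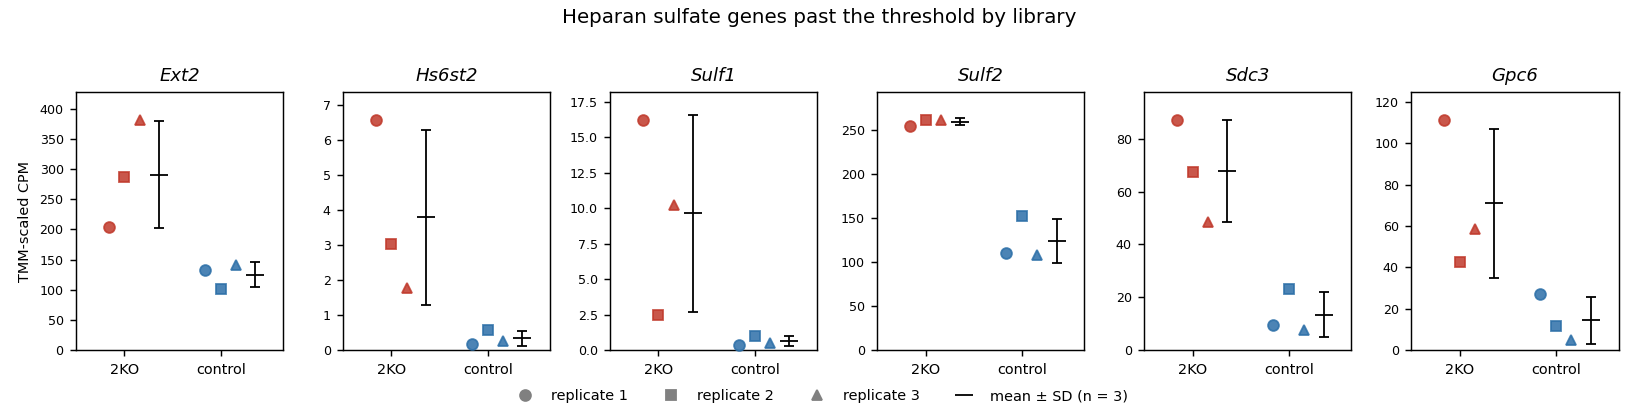
TMM-scaled CPM (y axis, from 0, a scale of its own per gene) of the 6 heparan sulfate genes that passed the threshold, in each 2KO and control library, with marker shapes for replicates and bars for the mean ± SD (n = 3). Every 2KO library lies above every control library in all 6 panels, and the Sulf2 levels of the 2KO libraries, between 255 and 262 CPM, nearly coincide.

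Of 21 tested genes of the relay from the receptor to ERK, 1 fell (Gab1) and none rose with edgeR, beside 2.42% of all tested genes called lower. The docking protein gene Gab1 was at 204, 162 and 219 CPM in 2KO and at 348, 315 and 297 CPM in control (log2 fold change -0.71, SE 0.17, edgeR adjusted p = 0.0303). Every 2KO library lay below every control library. The adjusted p was between 0.0545 and 0.116 without each library in turn except 2KO replicate 3, without which it was 0.0432. It was 0.0697 with Xist as a covariate. DESeq2 called 2 genes of this list lower (4.9% of all genes) and limma-voom called 1 (2.69% of all genes), and neither called any higher. The RAS gene Nras, the most abundant that did not pass, was at 708 ± 141 CPM in 2KO and 646 ± 34.1 CPM in control (SD, n = 3 each, edgeR adjusted p = 0.754).

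Of 7 tested co-receptors and binding proteins none passed with edgeR, DESeq2 or limma-voom, and 1 had an unadjusted p under 0.05. The most abundant, Flrt3, a membrane protein that binds FGF receptors, was at 475, 259.5 and 310.5 CPM in 2KO and at 628, 449 and 414 CPM in control, with overlapping groups (edgeR adjusted p = 0.284). Kl, the co-receptor of FGF23, was singled out after its values were seen. It was at 2.08, 2.47 and 0.314 CPM in 2KO and had 1 read over the control libraries, but did not reach the count filter and was not tested.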

How the data were processed

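The authors deposited counts: whole numbers of reads per gene symbol, not normalized, 1 file per library. The submitters' processing notes list TopHat2 (2.0.13), HTSeq (0.6.1), Cufflinks (2.2.1), DESeq2 (1.6.3) and mm10, and the sources used here do not give their roles, the annotation or the strand setting. Per the labels' protocols, libraries were amplified from 10 ng of RNA and sequenced as single reads of 100 nt, which are not independent molecules.

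Low counts were filtered with filterByExpr, libraries were scaled by TMM, and all 6 were compared with edgeR's quasi-likelihood test (edgeR 4.0.16 in R 4.3.3) without covariates. P-values were adjusted by Benjamini-Hochberg over 14972 genes, and 1 count was worth between 0.0323 and 0.0392 CPM. The SE is the log2 fold change over the root of its F statistic. The fit was tested on simulated counts. Coordinates and exonic lengths are from GENCODE vM21 (GRCm38, the assembly of mm10). Alternatives were DESeq2 1.42.0, limma-voom (limma 3.58.1), RLE scaling, other filters, Xist or the replicate number as a term, and libraries left out. The text names all members, the pathway genes called and the most abundant uncalled gene of each list, besides genes of the label, overlap and marker checks and 2 ERK responsive genes (Phlda1 and Fosl1) chosen after their values were seen. Members and lists were chosen with earlier results of these data known.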

Additional observations from a re-analysis of the deposited data

How the results depend on the processing

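Of 22 tested members, Fgf11 alone was called higher and Fgf2 alone lower. DESeq2 called 2 members higher (Fgf11 and Fgf13) and 1 lower (Fgf2), and of all genes 1415 higher and 733 lower. With Xist as a covariate 0 members and 228 of all genes were called lower. Without both replicate-3 libraries, which leaves 2 against 2, 0 members were called higher and 0 lower, with 309 and 72 of all genes and 0 heparan sulfate genes higher. Without both replicate-1 libraries, an alternative chosen after seeing the data, 3 heparan sulfate genes were called higher. With each library left out in turn, between 0 and 1 member was called higher, between 0 and 1 lower, between 4 and 5 heparan sulfate genes higher, and of all genes between 615 and 854 higher and between 184 and 347 lower.

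Directions reversed for genes that passed in no direction. Under limma-voom the log2 fold change was 0.24 for Fgfr4, -0.28 for Spry4, -0.14 for Dusp6 and -0.10 for Etv5. With Xist as a covariate it was 2.28 for Fgfr4, 0.15 for Spry1, -0.43 for Etv5 and 0.043 for Ring1. Without both replicate-3 libraries it was -0.054 for Rnf2, and without both replicate-1 libraries 0.025 for Fgfr2, 2.85 for Fgfr4, -0.95 for Spry4, -0.73 for Dusp6 and -0.35 for Etv5. With each library left out in turn it ranged from -0.18 to 0.83 for Fgf1, -0.092 to 1.047 for Fgf9, -4.41 to 0.25 for Fgf17, -0.17 to 0.46 for Fgfr1, -3.55 to 2.36 for Fgfr4, -0.62 to 0.26 for Spry1, -0.20 to 0.78 for Spry2, -1.68 to 1.35 for Spry4, -1.053 to 0.85 for Dusp6, -0.64 to 0.67 for Etv5 and -0.029 to 0.25 for Nras. The cause was not tested.

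The labels do not say whether samples with the same replicate number share a litter or day. Their deviations correlated at 0.32, 0.10 and -0.13 for numbers 1, 2 and 3, and not every library correlated best with its own number. With a replicate block 1142 of all genes were called higher and 540 lower, the members called were again 1 higher (Fgf11) and 1 lower (Fgf2), and 8 heparan sulfate genes were called higher. Egr1 passed only with the block among the alternatives run (adjusted p = 0.0379, log2 fold change -0.71), and the log2 fold change was -0.26 for Spry4, -0.13 for Dusp6 and -0.072 for Etv5. RLE scaling moved the median of all genes to -0.0144, against -0.0162 with TMM. Genes under about 1 CPM rest on few reads and are limited by depth.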
